A study of Mus musculus with 3 samples.

Results

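The 9 genes described here encode regulators of red blood cell formation: the transcription factors and cofactors Gata1, Klf1, Tal1, Nfe2, Gfi1b, Zfpm1 and Lmo2, the nuclear protein gene Hemgn, and Epor, the receptor for erythropoietin. They were chosen by their symbols in a table of 26970 genes measured by RNA sequencing of mouse mandibular condyles, and all 9 are in it. The condyle is the jaw's side of the temporomandibular joint, and it was dissected with its cartilage still attached to the subchondral bone. Mice were 4 months old and of 3 genotypes: wild type (WT, Dspp +/+), Dspp+/- and Dspp-/-, where the knockout allele is global, on the C57BL/6 background, and Dspp encodes dentin sialophosphoprotein, a matrix protein. The wild-type parents of the Dspp+/- mice were C57BL/6, and the other parents were Dspp-/-. Each genotype had 1 library of poly(A)-selected RNA. Tissue of several animals was pooled for the WT and Dspp+/- libraries, and the number of animals behind the Dspp-/- library was not given in the sources used here. With 1 library per genotype there was no replicate, which leaves the genotypes untested against each other, and a difference below is one between single libraries.

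Red blood cells are made in bone marrow, and the marrow spaces of the subchondral bone are one place where such cells can be found in a condyle. Erythropoietin binds its receptor on erythroid progenitors and activates the kinase JAK2 and the factor STAT5. GATA1 is the central transcription factor of the lineage. It binds GATA sequences, works with the cofactor FOG1, which Zfpm1 encodes, and joins TAL1, LMO2 and LDB1 in one complex on DNA. KLF1 binds CACC-type sequences and activates the adult beta globin gene, the p45 subunit that Nfe2 encodes pairs with small Maf proteins, and GFI1B is a repressor. These genes are not restricted to red cells. GATA1, FOG1, GFI1B and NF-E2 also act in megakaryocytes, GATA1 in eosinophils and mast cells, and TAL1 and LMO2 in endothelial cells.

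The promoters of these genes are shown because GATA and CACC-type letters are the sequences that several of the encoded proteins bind. RefSeq windows on GRCm38.p6 were found for 7 of the 9 genes, 8 windows in all, since Tal1 has more than one start. In the 250 bases before the start, the GATA letters (AGATAA and the related AGATAG, and further TGATAA and the related TGATAG), on either strand, were found in 5 of the 8 windows, against 26.5% of 32851 windows of all genes. The CACC-type letters CCNCNCCC were found in 6 of 8, against 45.9%. The E-box letters CAGNTG were found in 3 of 8, against 44.8%, and the NF-E2 core TGAGTCA in 0 of 8, against 4.46%. The GATA and CACC-type matches did not overlap each other in these windows. The 130 bases before the start are printed for the 4 genes with 1 window and a GATA match, 5′ to 3′ along the gene. They are Klf1 at chr8:84901852-84901981 on the plus strand, Gfi1b at chr2:28621983-28622112 on the minus strand, Hemgn at chr4:46404184-46404313 on the minus strand and Epor at chr9:21963577-21963706 on the minus strand. Capitals mark the GATA letters and the CACC-type letters.
Klf1: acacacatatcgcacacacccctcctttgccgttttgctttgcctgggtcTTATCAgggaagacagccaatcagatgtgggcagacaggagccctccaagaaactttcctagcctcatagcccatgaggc
Gfi1b: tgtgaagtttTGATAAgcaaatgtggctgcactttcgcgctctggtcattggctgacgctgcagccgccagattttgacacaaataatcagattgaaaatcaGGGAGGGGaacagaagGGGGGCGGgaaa
Hemgn: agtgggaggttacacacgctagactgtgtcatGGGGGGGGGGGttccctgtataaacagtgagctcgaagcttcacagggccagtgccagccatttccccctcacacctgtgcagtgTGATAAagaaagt
Epor: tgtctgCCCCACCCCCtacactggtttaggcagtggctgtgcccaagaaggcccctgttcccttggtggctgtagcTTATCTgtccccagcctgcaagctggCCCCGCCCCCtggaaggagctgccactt
Counted from the start, the GATA letters span -80 to -75 in Klf1, -120 to -115 in Gfi1b, -13 to -8 in Hemgn and -54 to -49 in Epor. The last bases of the full RefSeq window were not found in the gene's own GENCODE M21 transcripts for Epor and for 1 Tal1 window. The starts used there went without that backing. The Klf1 window holds the GATA letters and no CACC-type match, and in Hemgn the 4 CACC-type matches overlap in 1 run of G. In the Gata1 window there were 3 CACC-type matches and no GATA match, and in the Zfpm1 window 4 CACC-type matches and no GATA match. These letters describe the windows, and binding was not measured.

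Each of the 9 genes had its lowest level in WT and its highest in Dspp+/-, with Dspp-/- between. Levels are given as FPKM, fragments scaled to exon length and to the depth of the library, the unit in which the deposited values were read. The fragments behind each value were recovered from the FPKM, gene length and depth. Depth was 20241576 fragments for the WT library, 23613621 for Dspp+/- and 22253158 for Dspp-/-. Each fold carries a 95% Clopper-Pearson interval from these fragments, and each level an exact Poisson interval. FPKM holds no adjustment for the makeup of a library. PCR copies cannot be told from separate molecules here, so both intervals may be too narrow even for counting error. They hold nothing of the spread between mice.

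**Figure D1:**
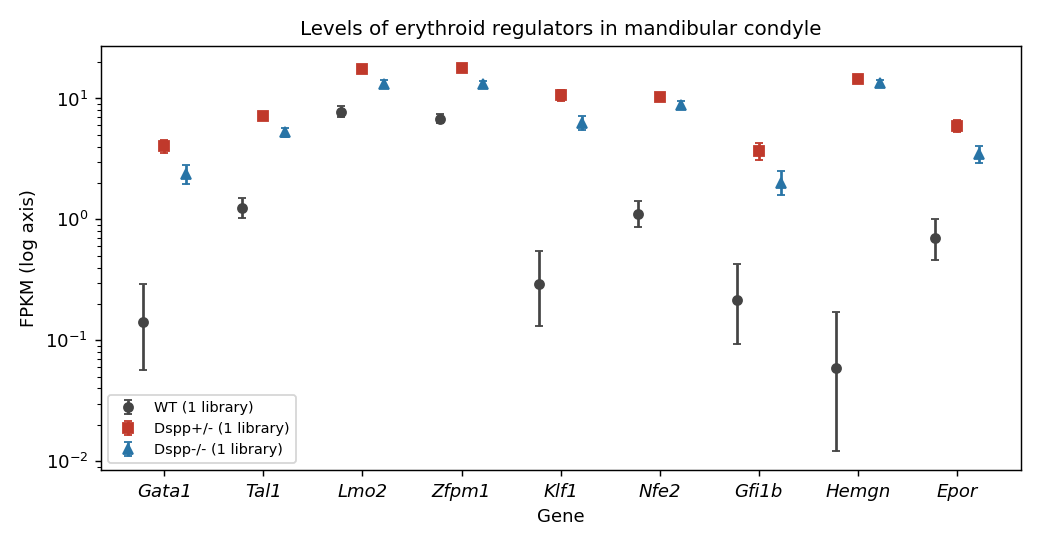
FPKM of the 9 genes (vertical log axis) in the WT, Dspp+/- and Dspp-/- libraries, 1 point per library, with 95% exact Poisson intervals of the recovered fragments as bars. In each gene the WT point is the lowest and the Dspp+/- point the highest, though the Dspp+/- and Dspp-/- bars of Hemgn overlap. Hemgn spans the widest range, from 0.0590 to 14.5 FPKM.

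GATA1, TAL1, LMO2 and FOG1 act together on DNA, and their genes come first. Gata1, on chromosome X from 7825499 to 7844310 in the table, was at 0.142 FPKM in WT, against 4.01 in Dspp+/- and 2.36 in Dspp-/-. These values rest on 7, 231 and 128 fragments. Its fold over WT was 28.3 (interval 13.5 to 71.1) for Dspp+/- and 16.6 (7.84 to 42.2) for Dspp-/-. Both mutant levels lay far above WT, and the few WT fragments make the intervals wide. Tal1, a basic helix-loop-helix factor gene on chromosome 4 from 114913623 to 114928952, had levels of 1.24, 7.19 and 5.24 FPKM in WT, Dspp+/- and Dspp-/-, the order kept for values below. Its fold was 5.79 (4.73 to 7.14) for Dspp+/- and 4.23 (3.43 to 5.24) for Dspp-/-.

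Lmo2, which encodes the LIM protein that bridges TAL1 and GATA1, lies on chromosome 2 from 103788331 to 103812223. It was the most abundant of the 9 genes in WT, with 7.78 FPKM, and reached 17.7 in Dspp+/- and 13.2 in Dspp-/-. Its fold was the smallest of the 9 genes in both mutant libraries, 2.27 (2.002 to 2.58) and 1.69 (1.48 to 1.94). Zfpm1, the FOG1 gene on chromosome 8 from 123008880 to 123063990, was next, with 6.81, 17.9 and 13.2 FPKM and folds of 2.63 (2.37 to 2.92) and 1.93 (1.73 to 2.16). These 2 genes, the highest in WT, had the lowest folds of the 9. In WT the intervals of Lmo2 (6.97 to 8.65) and Zfpm1 (6.22 to 7.45) overlap, so their order there was not resolved.

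KLF1 and NF-E2 act as activators. Klf1, on chromosome 8 from 85628557 to 85631924, was at 0.290, 10.6 and 6.30 FPKM, which rest on 9, 385 and 215 fragments. Its fold was 36.7 (19.1 to 80.8) in Dspp+/-, while for Dspp-/- it was 21.7 (11.2 to 48.2). Its GENCODE M21 exon length did not give whole fragments in all 3 libraries, and the nearby length of 1534 bases, which did, was used. Nfe2, on chromosome 15 from 103156639 to 103166830, was at 1.11, 10.4 and 8.81 FPKM, with folds of 9.37 (7.29 to 12.2) and 7.96 (6.17 to 10.4). Klf1 was below Nfe2 in WT and in Dspp-/-, and in Dspp+/- their level intervals (9.59 to 11.7 and 9.64 to 11.2) overlap.

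Gfi1b, a zinc finger repressor gene on chromosome 2 from 28499462 to 28511994, had the lowest level of the 9 genes in both mutant libraries. Its levels were 0.216, 3.68 and 2.01 FPKM, from 8, 159 and 82 fragments. Its fold was 17.0 (8.44 to 40.1) for Dspp+/- and 9.32 (4.52 to 22.3) for Dspp-/-. In both mutant libraries its interval overlaps that of Gata1, so these genes shared the bottom of the order.

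Hemgn, which encodes the nuclear protein hemogen of blood-forming cells, lies on chromosome 4 from 46393989 to 46413506. It showed the widest range of the 9 genes, at 0.0590, 14.5 and 13.3 FPKM. The WT value is 3 fragments, and the mutant values are 857 and 744. The ratio to WT was 245 (83.5 to 1190) in Dspp+/-, while in Dspp-/- it was 226 (76.9 to 1096). The lowest of the 9 genes in WT was therefore among the 3 highest in both mutant libraries. Epor, on chromosome 9 from 21870193 to 21874802, was at 0.695, 5.92 and 3.48 FPKM from 28, 278 and 154 fragments. Its fold was 8.51 (5.76 to 13.0) in Dspp+/-, while for Dspp-/- it was 5.003 (3.33 to 7.78). The intervals of the 3 Epor levels do not overlap.

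**Figure D2:**
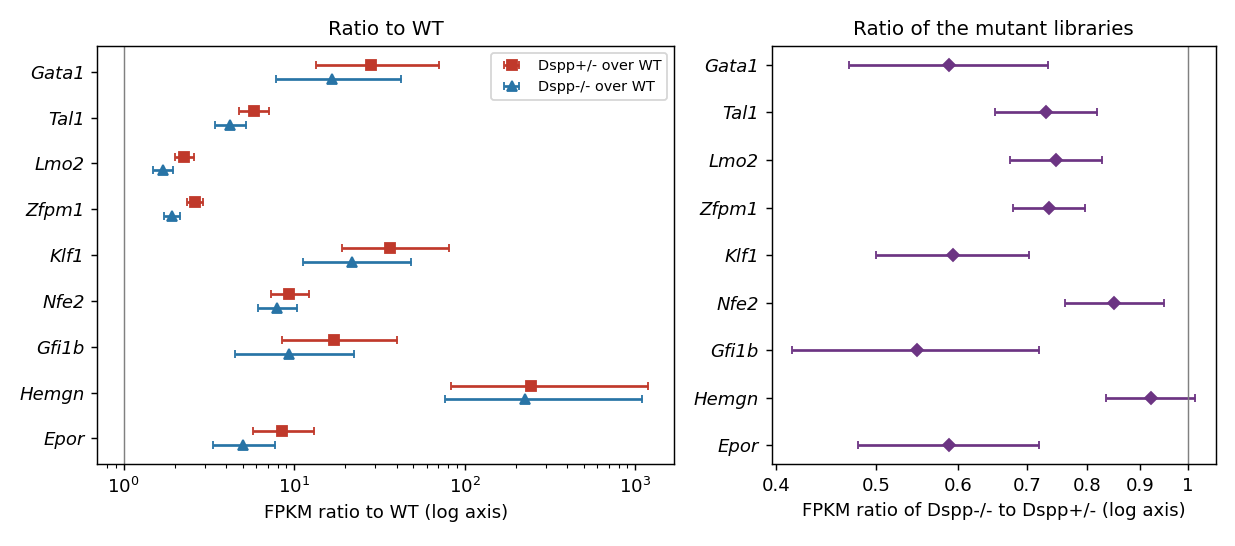
FPKM ratios of the 9 genes with 95% Clopper-Pearson counting intervals as bars, on log axes. The left panel gives Dspp+/- and Dspp-/- over WT, from 1.69 for Lmo2 to 245 for Hemgn, and the right panel gives Dspp-/- over Dspp+/-, where 8 of 9 intervals lie below 1.

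On the log2(FPKM + 1) scale, which understates differences of genes at low FPKM, all 9 genes were at least 2-fold higher in Dspp+/- than in WT. Over all 26970 genes of the table, 2.71% were that much higher, and 4.88% of the 13026 genes that averaged 1 FPKM or more. In Dspp-/-, 7 of the 9 were at least 2-fold higher, against 2.25% of all genes and 4.05% of those averaging 1 FPKM or more. The 2 others were Zfpm1, with a log2 ratio of 0.86, and Lmo2, with 0.69. The median log2 ratio of the 9 genes was 2.03 in Dspp+/- and 1.48 in Dspp-/-, against 0.016 and 0 over all genes. With a pseudocount of 5 in place of 1, 3 of the 9 were at least 2-fold higher in each mutant library. Both comparisons use the same WT library, so a low value there raises both ratios. None of the 9 was at 0 in any library. In condyle tissue, more cells of a type and more RNA per cell cannot be told apart.

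All 9 genes averaged 1 FPKM or more, but several reached it only through the mutant libraries: in WT, 5 of them (Epor, Klf1, Gfi1b, Gata1 and Hemgn) were under 1 FPKM. The order of levels therefore differed between libraries. In WT, Lmo2 held 42.4% and Zfpm1 37.1% of the summed FPKM of the 9 genes, and Hemgn held 0.322%. In Dspp+/-, Zfpm1 held 19.5%, Lmo2 19.2% and Hemgn 15.7%, followed by Klf1 with 11.6% and Nfe2 with 11.3%. In Dspp-/-, Hemgn, Lmo2 and Zfpm1 held 19.6%, 19.4% and 19.4%, and their levels (13.3, 13.2 and 13.2 FPKM) did not differ beyond counting error. In WT each gene from Tal1 down overlapped in interval with the next one in the order, and only the step from Zfpm1 (6.22 to 7.45) to Tal1 (1.02 to 1.496) was clear.

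The mutant libraries were then compared with each other, without WT. Each of the 9 was lower in Dspp-/-, as were 50.6% of all genes and 55.3% of those averaging 1 FPKM or more. The ratio of Dspp-/- to Dspp+/- was lowest for Gfi1b, at 0.547 (0.414 to 0.719). Epor followed at 0.588 (0.480 to 0.718), Gata1 at 0.588 (0.470 to 0.733) and Klf1 at 0.593 (0.499 to 0.702). Their intervals do not reach that of Nfe2, 0.849 (0.761 to 0.948). Tal1, Zfpm1 and Lmo2 lay between, from 0.730 to 0.746. Hemgn had the highest ratio, 0.921 (0.834 to 1.02), and was the 1 gene whose interval holds 1. With libraries scaled on housekeeping genes Hemgn turned to slightly higher in Dspp-/-, and the other 8 stayed lower.

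The genes that carry out red cell differentiation gave a scale for these ratios. A list of 30 terminal erythroid genes, of which Icam4 was not analysed here, had 22 of 29 genes at least 2-fold higher in Dspp+/- and 20 of 29 in Dspp-/- on the log2(FPKM + 1) scale. Its median log2 ratios were 1.89 and 1.84, and whether the 9 regulators lie above or below them turned with the pseudocount. The most abundant were the globin genes, which make hemoglobin. Hbb-bs had 425, 1794 and 1886 FPKM, and Hba-a1 had 395, 1577 and 1344. Hba-a2 had 51.6, 168 and 185 FPKM, and Hbb-bt had 22.3, 85.1 and 110 FPKM. Adult globin genes are near-identical pairs, so fragments could have been split between them. The summed level of the 4 globin genes was 4.05-fold that of WT in Dspp+/- and 3.94-fold in Dspp-/-, and the summed level of the 9 regulators was 5.01-fold and 3.70-fold. Taken gene by gene, the median FPKM fold over WT was 9.37 and 7.96 for the 9 regulators, against 4.71 and 4.92 for the 29 terminal genes. Groups within that list, formed after the values were seen, differed. The median fold was 52.4 and 42.6 for 10 red cell membrane genes, of which the highest reached 107 and 84.5, and 2.50 and 1.98 for 6 heme enzyme genes. Gata1 and Klf1 thus lay below the median of the membrane genes, and Hemgn above all 29 terminal genes.

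Among the 29 terminal genes, 23 had their lower mutant level in Dspp-/-, with a median FPKM ratio of 0.845 against 0.730 for the 9 regulators. For the 10 red cell membrane genes the median ratio was 0.766, with all 10 below 1. For the 6 heme enzyme genes it was 0.802, and for the 4 globin genes it was 1.08, with 1 below 1. The ratios of Gata1, Klf1, Gfi1b and Epor lay below the lowest of the 29 terminal genes, 0.665, though their upper bounds (0.702 to 0.733) lie above it.

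**Figure D3:**
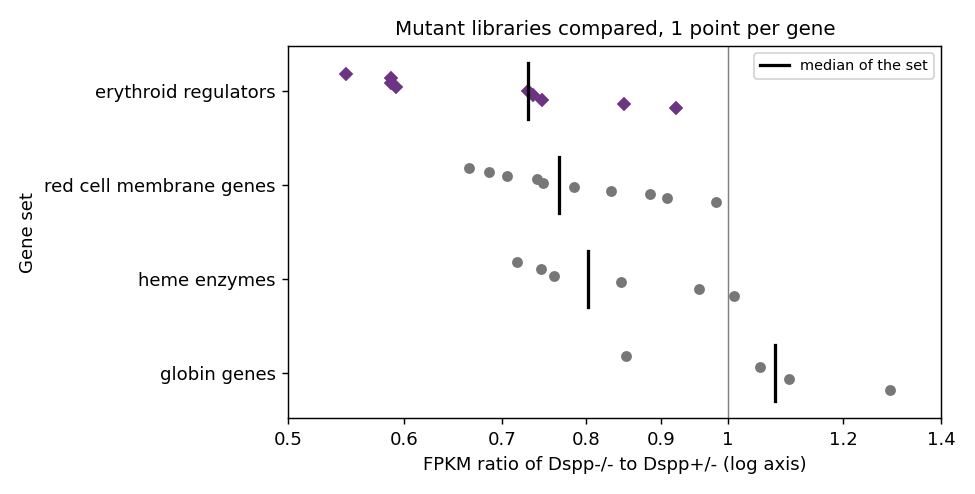
FPKM ratio of Dspp-/- to Dspp+/- (log axis) for the 9 erythroid regulators, 10 red cell membrane genes, 6 heme enzyme genes and 4 globin genes, 1 point per gene with the set's median as a black line. The medians are 0.730, 0.766, 0.802 and 1.08 in that order.

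Partners of these factors and other transcription regulators of blood cells differed less from WT. Of 26 such genes, 4 were at least 2-fold higher in Dspp+/- and 3 in Dspp-/- on the log2(FPKM + 1) scale, and none was 2-fold lower. Their median log2 ratios were 0.18 and 0.14. The most abundant was Foxo3, a forkhead factor gene, at 20.2, 21.1 and 18.7 FPKM. Nfe2l2, which encodes the oxidative stress factor NRF2, had 15.4, 20.5 and 22.9 FPKM. E2f4, a cell cycle factor gene, had 14.3, 23.5 and 18.6 FPKM, and Mafg, one of the small Maf genes, had 19.1, 21.1 and 15.5 FPKM. Named after their values were seen, the 4 genes past 2-fold in Dspp+/- were E2f2, Ikzf1, Myb and Lyl1. E2f2 had 1.70, 11.4 and 8.77 FPKM, Ikzf1 had 2.49, 13.6 and 13.0 FPKM, Myb had 0.990, 5.35 and 3.74 FPKM, and Lyl1 had 4.01, 12.1 and 7.34 FPKM. Also named after the fact, Ldb1, whose product joins GATA1, TAL1 and LMO2, had 17.8, 15.2 and 13.3 FPKM, and Gata2, which precedes Gata1 in blood progenitors, had 4.26, 4.74 and 2.86 FPKM. Neither followed the pattern of the 9 genes.

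A list of 15 genes around Epo receptor signaling also holds the separate receptor gene Kit and its ligand gene Kitl. On the log2(FPKM + 1) scale, 2 of the 15 were at least 2-fold higher in Dspp+/- and 1 in Dspp-/-, and 1 was 2-fold lower in Dspp+/-. Epo itself was not analysed here. Stat5b had 19.1, 21.9 and 20.1 FPKM, and Jak2 had 16.6, 15.3 and 19.3 FPKM. Kitl, the stem cell factor gene, had 13.2, 21.9 and 21.9 FPKM, and Sh2b3, an adaptor that restrains JAK2 signaling, had 15.9, 17.3 and 16.8 FPKM. The gene 2-fold lower was Socs1, a feedback inhibitor, with 3.72, 1.296 and 2.16 FPKM. Those higher, named after their values were seen, were Ptpn6, a phosphatase gene of blood cells, with 6.19, 18.7 and 15.97 FPKM, and in Dspp+/- also Lyn, a kinase gene, with 7.85, 17.1 and 16.2 FPKM. By FPKM ratio, the low genes Cish and Kit, also named after their values were seen, were 6.38-fold and 2.51-fold WT in Dspp+/-. In Dspp-/- they were 1.89-fold and 1.88-fold WT. Cish had 0.208, 1.33 and 0.392 FPKM, and Kit had 0.959, 2.41 and 1.80 FPKM. Of the 15 genes, 4 were below WT in Dspp+/-. Epor differed between libraries by more than Jak2 and Stat5b, which many cell types express.

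Markers of other cells that can express these regulators were examined next. Of 12 megakaryocyte and platelet genes, 8 were at least 2-fold higher in Dspp+/- and 9 in Dspp-/-, with a summed level of 68.4, 200.5 and 210.0 FPKM. Ppbp had 10.4, 75.6 and 86.7 FPKM and Thbs1 had 38.4, 48.9 and 49.3 FPKM. Of 9 eosinophil genes, 7 were at least 2-fold higher in each mutant library, with a summed level of 8.06, 179 and 166 FPKM. Prg2 had 3.42, 81.5 and 65.3 FPKM, and Ear2, from a family of close copies, had 2.13, 27.5 and 29.0 FPKM. Of 9 mast cell and basophil genes, 4 were at least 2-fold higher in Dspp+/- and 3 in Dspp-/-, with a summed level of 2.47, 21.4 and 13.1 FPKM. Mcpt8 was listed at 0 in WT and had 8.36 and 3.87 FPKM in the mutant libraries, Hdc had 0.410, 4.196 and 3.43 FPKM, and Tpsab1, named for its 0, was listed at 0 in Dspp+/-. The part of these cells in the levels of the 9 genes was not tested.

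Endothelial genes differed less. None of 10 was 2-fold higher or lower in either mutant library, and their summed level was 214, 242 and 228 FPKM. Cdh5 had 48.9, 56.2 and 52.8 FPKM and Eng had 44.2, 47.4 and 42.4 FPKM. Of 8 genes of blood progenitors, 1 was 2-fold higher on the log2(FPKM + 1) scale in each mutant library. It was Cd48, with 3.66, 10.04 and 9.56 FPKM, while Cd34 had 15.2, 12.5 and 16.1 FPKM. Only 4 of these 8 genes averaged 1 FPKM or more, and the scale understates differences of the others. Of 12 genes of dividing cells, 9 were at least 2-fold higher in Dspp+/- and 7 in Dspp-/-, with a summed level of 42.3, 136 and 129 FPKM. Mki67 had 4.34, 26.7 and 30.5 FPKM and Pcna had 14.9, 29.6 and 26.8 FPKM.

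**Figure D4:**
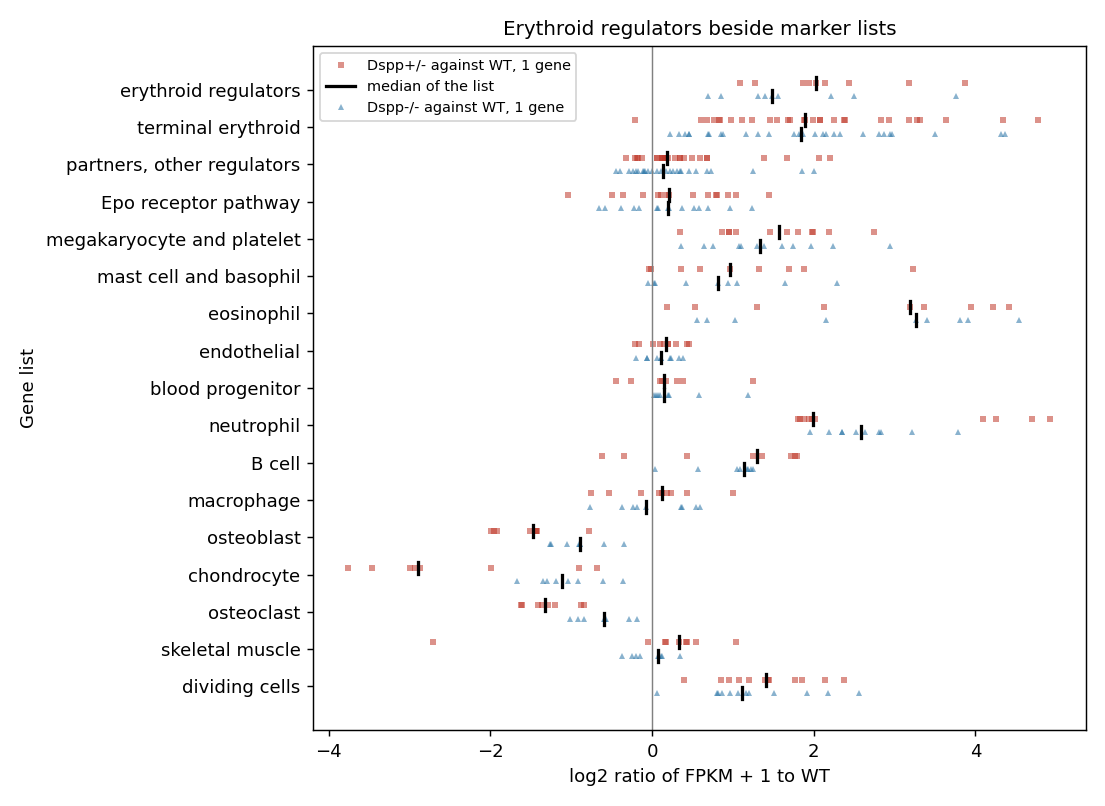
log2 ratio of FPKM + 1 to WT (horizontal axis) for each gene of the 9 erythroid regulators and of 16 lists, in Dspp+/- (squares) and Dspp-/- (triangles), with each list's median as a black line. The regulators have medians of 2.03 in Dspp+/- and 1.48 in Dspp-/-, and the terminal erythroid genes 1.89 and 1.84. Being high is not particular to erythroid lists. Neutrophil genes have 1.997 and 2.58, megakaryocyte and platelet genes 1.57 and 1.34, and eosinophil genes 3.19 and 3.26. The neutrophil median in Dspp+/- and the megakaryocyte median in Dspp-/- lie nearer the regulators than the terminal erythroid medians do. Partners (0.18 and 0.14) and endothelial genes (0.17 and 0.11) lie near 0, and osteoblast and chondrocyte genes below it.

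The other cell types of the condyle differed between the libraries as well. All 10 neutrophil genes were at least 2-fold higher in both mutant libraries, with S100a9 at 232, 916 and 1339 FPKM and S100a8 at 133, 542 and 956 FPKM. Of 8 B cell genes, 5 were 2-fold higher in Dspp+/- and 6 in Dspp-/-, with Cd79b at 5.90, 21.8 and 15.4 FPKM and Cd79a at 5.49, 21.6 and 12.9 FPKM. The 2 B cell genes below WT in Dspp+/-, named after their values were seen, were Vpreb1, with 1.401, 0.565 and 1.46 FPKM, and Igll1, with 0.502, 0.176 and 2.12 FPKM. Of 9 macrophage genes, 1 was 2-fold higher in Dspp+/- and none in Dspp-/-, with Cd68 at 50.4, 34.7 and 44.3 FPKM and C1qb at 33.5, 38.2 and 31.8 FPKM. The defining genes of the tissue were present in every library and lower in both mutants. On the log2(FPKM + 1) scale, 7 of 8 osteoblast genes were at least 2-fold lower in Dspp+/- and 3 in Dspp-/-. So were 6 and 5 of 8 chondrocyte genes, and 6 and 1 of 8 osteoclast genes. Of all 26970 genes, 422 and 227 were that much lower. Col1a1 of osteoblasts had 6675, 1719 and 3610 FPKM and Col1a2 had 2780, 700 and 1496. Col2a1 of chondrocytes had 761, 94.2 and 308 FPKM and Col10a1 had 246, 17.3 and 107. Ctsk of osteoclasts had 863, 279 and 481 FPKM and Acp5 had 756, 248 and 399. Acta1 of skeletal muscle, a tissue attached to the condyle, had 5609, 8162 and 7150 FPKM and Tnnt3 had 1450, 1950 and 1218. Of 9 muscle genes, 1 was 2-fold higher and 1 lower in Dspp+/-, and none in Dspp-/-. The share of mitochondrial genes in all FPKM was 25.02%, 36.9% and 37.3%, and 12 housekeeping genes had median log2 ratios of 0.17 and 0.056. Xist, which is transcribed from the inactive X of female cells, had 0.00551, 28.5 and 26.5 FPKM, and 4 Y-linked genes together had 36.6, 19.0 and 25.9 FPKM. Sex of the animals and genotype therefore cannot be told apart.

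Finally, the genes closest to the 9 regulators in pattern were found among genes averaging 1 FPKM or more, by the distance between their log2 ratios in both mutant libraries and the medians of the 9 genes, over 3 libraries. The nearest was Gm5417, at a distance of 0.076 on the log2 scale, with 0.226, 4.16 and 2.56 FPKM. It was followed by Ces2g, a carboxylesterase gene, at 0.082 with 0.290, 4.23 and 2.80 FPKM, and by Gm44126 at 0.14 with 0.288, 3.79 and 2.62 FPKM. Sash3, an adaptor gene of lymphocytes, was also among the 5 nearest, at 0.16 with 1.75, 10.5 and 7.52 FPKM.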

How the data were processed

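RNA-seq was done on mandibular condyles, 1 library per genotype. The submitters' processing notes name HISAT2 2.1.0 and StringTie 1.3.3b without their roles, and a human genome build. The annotation is not given in the sources used here. The authors deposited 1 value per gene and library, with no unit named, which was read as FPKM normalized by exon length and depth. The product of value and merged exon length (GENCODE M21) came in whole steps of 1 size per library, within 0.1 fragment, for 98.8% to 98.9% of genes under 100 fragments. This gave depth and fragments, and the recovery was tested on simulated data. The labels speak of triplicates, but the table has 1 column per genotype. Gene positions are those of the table, whose build is not named and is not GRCm38, as 574 genes share their position with GENCODE M21. None of the 9 genes overlaps another gene's exons or shares a 100-base sequence with another gene in GENCODE M21.

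Counts of 2-fold genes and medians of log2 ratios used log2 of FPKM + 1, unfiltered, while folds and FPKM ratios hold no pseudocount. A floor of 3 fragments was used only in an alternative that left out Hemgn. There, 8 of the other 8 genes were at least 2-fold higher in Dspp+/- and 6 in Dspp-/-, with median log2 ratios of 1.99 and 1.44. The members and gene lists were chosen with earlier results of these data known. Genes named were the 9 members, the 4 most abundant of the erythroid, partner and Epo pathway lists and any gene there at least 2-fold against its list's median, the 2 most abundant of each marker list, and the 5 nearest in pattern, of which 1 is not reported here. Others were named after their values were seen (Ikzf1, E2f2, Myb, Lyl1, Ldb1, Gata2, Ptpn6, Lyn, Cish, Kit, Tpsab1, Vpreb1 and Igll1). The alternatives changed the pseudocount, filter, scaling, threshold and members. With 1 library per genotype no test was run. Software was scipy 1.17.1, pandas 2.3.3, matplotlib 3.10.9 and numpy 2.4.6 under Python 3.11.15.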

Additional observations from a re-analysis of the deposited data

How the results depend on the processing

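With 1 library per genotype no spread between mice was available, and at 3 to 9 fragments in WT the folds of Hemgn, Gata1, Gfi1b and Klf1 were set by few fragments. The 9 genes stayed higher than WT in both mutant libraries under every scaling run. A pseudocount of 5 left 3 genes at least 2-fold higher in each mutant library, since it shrinks ratios of low genes. Keeping only genes averaging 5 FPKM or more left 5 of them, of which 5 were 2-fold higher in Dspp+/- and 3 in Dspp-/-. This average includes the mutant libraries. Klf1, Nfe2 and Hemgn passed it only through them, with 0.290, 1.11 and 0.0590 FPKM in WT. The filter thus favors genes high in the mutants, and its counts and the medians below lend no backing to a difference. With all 9 genes and a threshold of 4-fold, the counts were also 5 and 3. The median log2 ratio was 3.12 in Dspp+/- and 2.74 in Dspp-/- with a pseudocount of 0.1, 0.96 and 0.62 with a pseudocount of 5, and 2.22 in Dspp-/- for genes averaging 5 FPKM or more. The difference between this median and that of the terminal erythroid genes, 0.14 in Dspp+/- and -0.36 in Dspp-/-, had no stable sign. It was 0.90 and 0.45 with a pseudocount of 0.1, -0.30 in Dspp+/- with a pseudocount of 5, and 0.40 in Dspp-/- for genes averaging 5 FPKM or more. The median log2 ratio of Dspp-/- to Dspp+/-, -0.42, was -0.31 with a pseudocount of 5 and -0.26 with housekeeping scaling. Housekeeping scaling shifted all genes by -0.22 in Dspp+/-, and scaling without hemoglobin, immunoglobulin and muscle genes by -0.20 and -0.17, and each left 8 genes at least 2-fold higher in Dspp+/-.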
